A study of Mus musculus with 16 samples.

Results

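Hmgcs1, Idi1, Sqle, Lss, Cyp51, Insig1 and Srebf2, 7 genes of cholesterol synthesis and its control by SREBP2, were followed in liver RNA-seq libraries of 16 male mice, with 4 animals on each of 4 diets. The 7 genes were taken as a listed set by symbol from a table of 54752 genes. All animals, those on the control diet included, were Ercc1Δ/− F1 hybrids of C57BL6J and FVBN that lack full function of a DNA repair endonuclease and age early. They ate AIN93G until 8 weeks of age and were sampled at 11 weeks. In between, the high-protein diet supplied protein at 194% and carbohydrate at 70% of the standard, the low-protein diet protein at 70% and carbohydrate at 112%, and the low-fat diet fat at 70% and carbohydrate at 112%, while controls stayed on AIN93G. The diets were isocaloric and fed ad libitum. The labels describe no Ercc1 wild-type animals in these groups, and litter and cage of the animals are not stated, so each p-value reflects only variation among the sampled livers.

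Hepatocytes build cholesterol from acetyl-CoA through the mevalonate pathway. When membranes of the endoplasmic reticulum hold little sterol, the protein SCAP carries the precursor of SREBP2 to the Golgi, where proteases release a transcription factor that switches on nearly every enzyme of the pathway. When sterol is plentiful, INSIG proteins hold SCAP back. Hmgcs1 encodes the synthase that makes HMG-CoA, Idi1 the isomerase of isoprenoid units, Sqle the monooxygenase that oxidises squalene, Lss the cyclase that forms lanosterol and Cyp51 the enzyme that removes a methyl group from it. Insig1 encodes a sterol-sensing brake that is itself an SREBP target, and Srebf2 encodes SREBP2.

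Promoter windows are shown for Hmgcs1, Idi1 and Cyp51, whose levels moved together between libraries, and for Lss, whose level did not follow them in the library where they were lowest. RefSeq windows (GRCm38.p6, 250 bases before to 50 after the start) matched 6 of the 7 genes, and Sqle had none. Of 7 letter patterns searched on both strands, capitals mark 2, the sterol element TCACNCCAC and CCAAT, which reads ATTGG where it lies on the other strand. The Hmgcs1 window is chr13:119690101-119690400 on the plus strand, the Idi1 window chr13:8885356-8885655 on the plus strand, the Cyp51 window chr5:4104648-4104947 on the minus strand and the Lss window chr10:76531355-76531654 on the plus strand.
Hmgcs1: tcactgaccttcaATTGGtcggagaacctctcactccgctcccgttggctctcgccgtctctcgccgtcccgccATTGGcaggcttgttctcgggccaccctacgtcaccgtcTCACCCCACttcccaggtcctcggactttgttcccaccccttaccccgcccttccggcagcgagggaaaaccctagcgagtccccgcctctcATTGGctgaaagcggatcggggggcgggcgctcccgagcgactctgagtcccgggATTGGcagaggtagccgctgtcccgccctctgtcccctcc
Idi1: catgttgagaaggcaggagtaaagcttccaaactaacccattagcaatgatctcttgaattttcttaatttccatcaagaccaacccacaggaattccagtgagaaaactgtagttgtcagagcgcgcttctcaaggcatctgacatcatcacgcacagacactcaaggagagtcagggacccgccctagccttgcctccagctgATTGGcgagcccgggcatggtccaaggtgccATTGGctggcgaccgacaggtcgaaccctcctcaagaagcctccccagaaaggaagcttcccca
Cyp51: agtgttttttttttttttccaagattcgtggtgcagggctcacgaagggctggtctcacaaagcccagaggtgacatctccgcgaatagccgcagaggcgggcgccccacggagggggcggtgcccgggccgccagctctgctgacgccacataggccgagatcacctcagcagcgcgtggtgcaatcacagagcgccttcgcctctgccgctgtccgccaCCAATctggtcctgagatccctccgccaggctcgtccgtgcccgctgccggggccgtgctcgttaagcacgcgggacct
Lss: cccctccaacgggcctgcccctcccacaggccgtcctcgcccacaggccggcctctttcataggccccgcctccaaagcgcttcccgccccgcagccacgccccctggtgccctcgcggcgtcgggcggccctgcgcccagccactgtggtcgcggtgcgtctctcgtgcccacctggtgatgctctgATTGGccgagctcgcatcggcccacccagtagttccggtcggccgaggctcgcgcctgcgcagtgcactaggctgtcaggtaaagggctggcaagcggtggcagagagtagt

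The pattern TCACNCCAC was in the window of 1 of the 6 genes, Hmgcs1, at position -137 from the start, and in 1.24% of all 32851 windows of that length. Its forms TCACCCCAC (0.551% of windows) and CACCCCAC (2.87%) overlap it and matched the same place in Hmgcs1 alone, and GTGCGGTG (0.734%) matched none of the 6. The E box CACGTG (7.15%) was in the Insig1 window alone. CCAAT was in all 6 windows against 37.4% of all windows, and the GC box GGGCGG was in all 6 against 35.7%. A match describes letters in a window and is not a binding site.

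Library totals were 37317405 to 46899907 counts with high protein, 36662347 to 43404769 with low protein, 36871852 to 112789127 with low fat and 35243594 to 46051218 in control. Control 4 stood apart from the other controls: 19.2% of 17833 tested genes were lower in it by 1 log2 unit or more and 15.8% higher. Summed kidney marker genes reached 1.151 to 1510 CPM (depth-scaled counts) with high protein, 655.5 to 1221 with low protein, 988.1 to 3016 with low fat and 87.05 to 5108 in control, while the summed hepatocyte markers were at 81680 CPM or more in every library. The part of kidney RNA in the results was not tested beyond the fit that includes it as a covariate. In bulk liver, fewer cells of a type and less RNA per cell cannot be told apart.

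Per exon length, Insig1 was the highest of the 7 genes and Lss the lowest. Mean levels over 16 libraries were 154.5 ± 51.8 TPM (length- and depth-scaled counts, SD) for Insig1, 112 ± 49.9 TPM for Hmgcs1, 95.1 ± 39.3 TPM for Idi1 and 57.3 ± 20.02 TPM for Cyp51. Srebf2 followed at 17.4 ± 2.65 TPM, Sqle at 16.1 ± 5.86 TPM and Lss at 10.4 ± 2.13 TPM. Cyp51 and Srebf2 were the neighbours in that order whose means lay farther apart than either SD, and other neighbours lay apart by less than the larger of their SDs. The length used sums all annotated exons, which for Lss comes to 10787 bases and lowers its TPM.

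**Figure D1:**
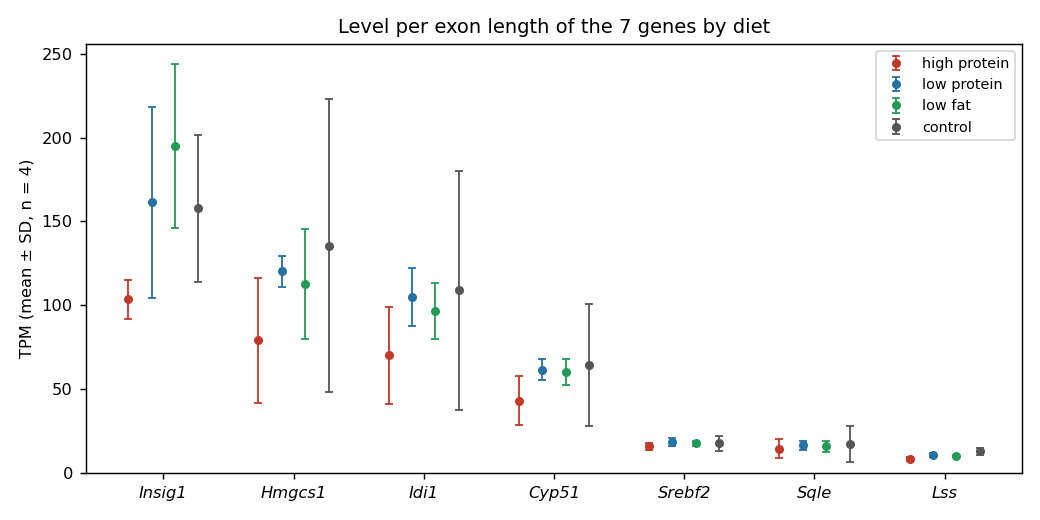
Level of each gene in TPM (vertical axis) by diet, with points at the mean of 4 libraries and bars of 1 SD. Insig1 averaged 103.6 TPM with high protein and 195.2 TPM with low fat, and the control bars of Hmgcs1, Idi1 and Cyp51 are wide.

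The comparison with the control diet asks how each change in macronutrients was met by the pathway. All 7 genes had lower fitted levels with high protein than in control, but none passed the test. That count was 5 of 7 without control 3, and 6 of 7 without control 1 or without high-protein 4. With low protein 5 of 7 and with low fat 6 of 7 were below control. These counts rested on single controls: without control 1 they were 1 and 2 of 7, and without control 3 they were 1 and 3 of 7. Without control 2 or without control 4 they were 6 and 6 of 7. The median log2 fold change of the 7 was -0.53 with high protein, -0.02 on low protein and -0.12 in the low-fat group. Across all tested genes 58.3%, 54.4% and 52.4% were below 0 in these comparisons, taken in the same order. edgeR's quasi-likelihood test called 0.0% of 17833 genes at an adjusted p of 0.05 in each of the 6 pairs of diets, with 425 to 1644 genes at an unadjusted p under 0.05, and DESeq2 called 0 to 81.

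The enzyme genes began with Hmgcs1, at 134, 253, 217 and 78.8 CPM with high protein, 239.5, 260.4, 228 and 264 CPM with low protein, 256, 168, 302 and 181 CPM with low fat, and 413, 247, 376 and 43.3 CPM in control. Control held both its highest library and its lowest, and the 4 diets overlapped. The log2 fold change of Hmgcs1 with high protein against control was -0.66 (SE 0.48, adjusted p = 0.7661, edgeR).

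Idi1 was at 104, 153, 151 and 53.2 CPM with high protein, 194, 169.9, 129.7 and 165 CPM with low protein, 174, 105, 158 and 158 CPM with low fat, and 257, 205, 195 and 6.29 CPM in control. Controls 1 to 3 were above every library of the other diets, and control 4 was below all of them. With high protein against control its log2 fold change was -0.53 (SE 0.63, adjusted p = 0.8382, edgeR).

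Sqle was at 34.2, 51.3, 46.7 and 18.9 CPM with high protein, 32.4, 44.6, 38.5 and 48.4 CPM with low protein, 36.4, 29.2, 46.5 and 42.4 CPM with low fat, and 60.1, 35.4, 61.2 and 11.1 CPM in control. Libraries of all diets overlapped. Its log2 fold change with high protein against control was -0.15 (SE 0.4), the smallest of the 5 enzymes.

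Cyp51 was at 71.99, 118, 111 and 56.4 CPM with high protein, 118, 131, 107 and 132 CPM with low protein, 129.9, 91.5, 126 and 120.1 CPM with low fat, and 181, 128, 157 and 29.8 CPM in control. Again control 4 was the lowest of the 16. The log2 fold change with high protein against control was -0.47 (SE 0.38). Akap9 overlaps Cyp51 on the other strand with 1458 to 5279 counts per library, and the strand setting of the counting is not given in the sources used here.

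Lss was at 44.5, 46.5, 42.2 and 34.1 CPM with high protein, 44.9, 46.1, 58.1 and 55.4 CPM with low protein, 51.1, 40.8, 46.3 and 49.5 CPM with low fat, and 70.8, 53.9, 63.6 and 63.7 CPM in control. All high-protein and all low-fat libraries were below all control libraries, while low-protein libraries overlapped them. Of all tested genes 0.841% were lower without overlap with high protein and 1.32% with low fat. Lss averaged 41.8 ± 5.43 CPM with high protein and 62.98 ± 6.94 CPM in control (SD, n = 4 each), a log2 fold change of -0.59 (SE 0.13). It did not pass adjustment over all genes (unadjusted p = 0.0004337, adjusted p = 0.7617, edgeR). Against control the log2 fold change of Lss was -0.30 (SE 0.13, adjusted p = 0.6815) with low protein and -0.43 (SE 0.13, adjusted p = 0.5302) with low fat, both by edgeR.

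Insig1 was at 160.4, 154.5, 143.5 and 145 CPM with high protein, 198, 129, 323 and 252 CPM with low protein, 219.9, 257, 215 and 367 CPM with low fat, and 209, 158.5, 267 and 249 CPM in control. The high-protein libraries lay close together and all below the low-fat libraries. The log2 fold change of Insig1 with high protein against low fat was -0.81 (SE 0.25, unadjusted p = 0.004699, adjusted p = 0.4141, edgeR), where 3.99% of tested genes were lower without overlap. With high protein it was -0.55 (SE 0.25) against control and -0.58 (SE 0.25) against low protein. Neither passed adjustment (adjusted p = 0.7617 and 0.947, edgeR).

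Srebf2 was at 54.3, 59.8, 50.4 and 50.6 CPM with high protein, 56.3, 67.5, 57.1 and 54.8 CPM with low protein, 55.7, 51.1, 59.2 and 54.6 CPM with low fat, and 60.8, 48.6, 66.9 and 52.8 CPM in control. It varied least of the 7, with log2 fold changes of -0.13 to 0.04 over the 6 pairs of diets and an SE of 0.12. The level of SREBP2 protein or its cleavage was not measured.

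**Figure D2:**
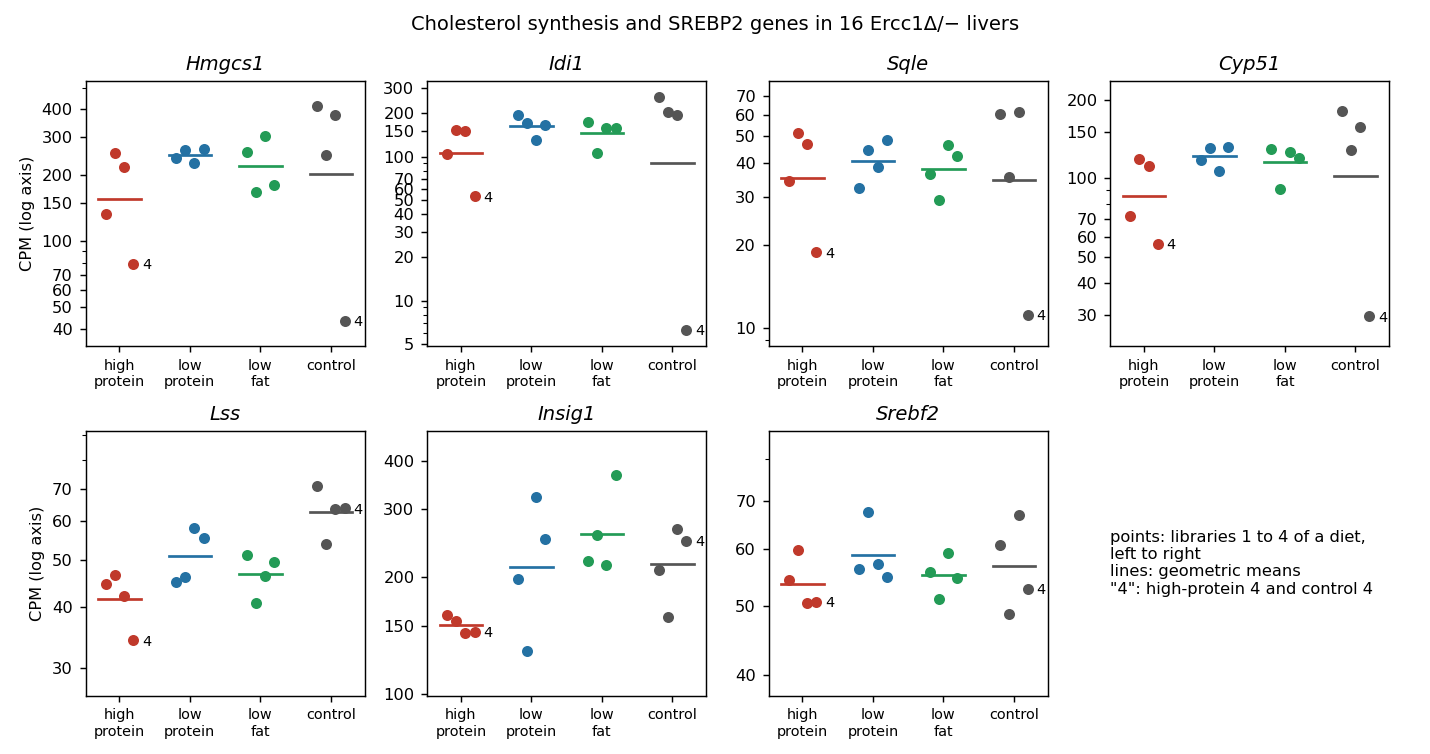
CPM (vertical log axis, its own range in each panel) of the 7 genes in libraries 1 to 4 of each diet, with lines at geometric means. Control 4 is the lowest library for Hmgcs1, Idi1, Sqle and Cyp51 and lies among the other controls for Lss, Insig1 and Srebf2.

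Between the changed diets the 7 genes were all lower with high protein than with low protein (median log2 fold change -0.45) and than with low fat (median -0.37), and 52.5% and 53.0% of all genes were below 0 in these comparisons. The counts were 6 of 7 against low protein and 5 of 7 against low fat without high-protein 4. They were the same with kidney level as a covariate. With low fat against low protein the median was -0.10 and 6 of 7 were below 0, against 49.6% of all genes. That count rested on low-fat 2 and was 3 of 7 without it. No member passed in any of these comparisons. These comparisons share the high-protein or the low-fat libraries, so their directions are not independent.

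In control 4, 4 genes of the set were far below the other controls and 3 were not. Idi1 was at 6.29 CPM there and at 219 ± 33.4 CPM in controls 1 to 3 (SD, n = 3), a difference of -5.10 in log2 CPM, and Hmgcs1 was at 43.3 CPM in control 4 and 345.5 ± 87.02 CPM in controls 1 to 3, a difference of -2.96. The differences of Cyp51 and Sqle were -2.36 and -2.18. Lss (0.03), Insig1 (0.26) and Srebf2 (-0.14) were near the other controls. Among the wider pathway 8 of 10 genes from acetyl-CoA to squalene and 7 of 13 later genes were lower by 1 log2 unit or more, with a background of 19.2%. The SREBP1 and lipogenesis list had 8 of 12 such genes, and in the fasting and glucocorticoid list 12 of 14 were higher by that much, with a background of 15.8%. In that list Igfbp1, an insulin-repressed binding protein, differed by 6.64 and Sesn1 by 4.84, and among 15 clock genes 7 were higher and 3 lower by 1 log2 unit or more, from 5.47 for Nfil3 and 4.90 for Arntl to -2.95 for Dbp, named after its value was seen. High-protein 4 was below the mean of high-protein 1 to 3 for all 7 genes, and for 8197 of 17833 tested genes. The median of the 7 was -0.80 in log2 CPM, with Insig1 at -0.08 and Srebf2 at -0.11. By 1 log2 unit or more 3 of the 7 were lower, with a background of 5.44%. In the fasting and glucocorticoid list 9 of 14 genes were higher in high-protein 4 by that much, with a background of 5.82%. The part of feeding state or sampling time in these values was not tested.

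**Figure D3:**
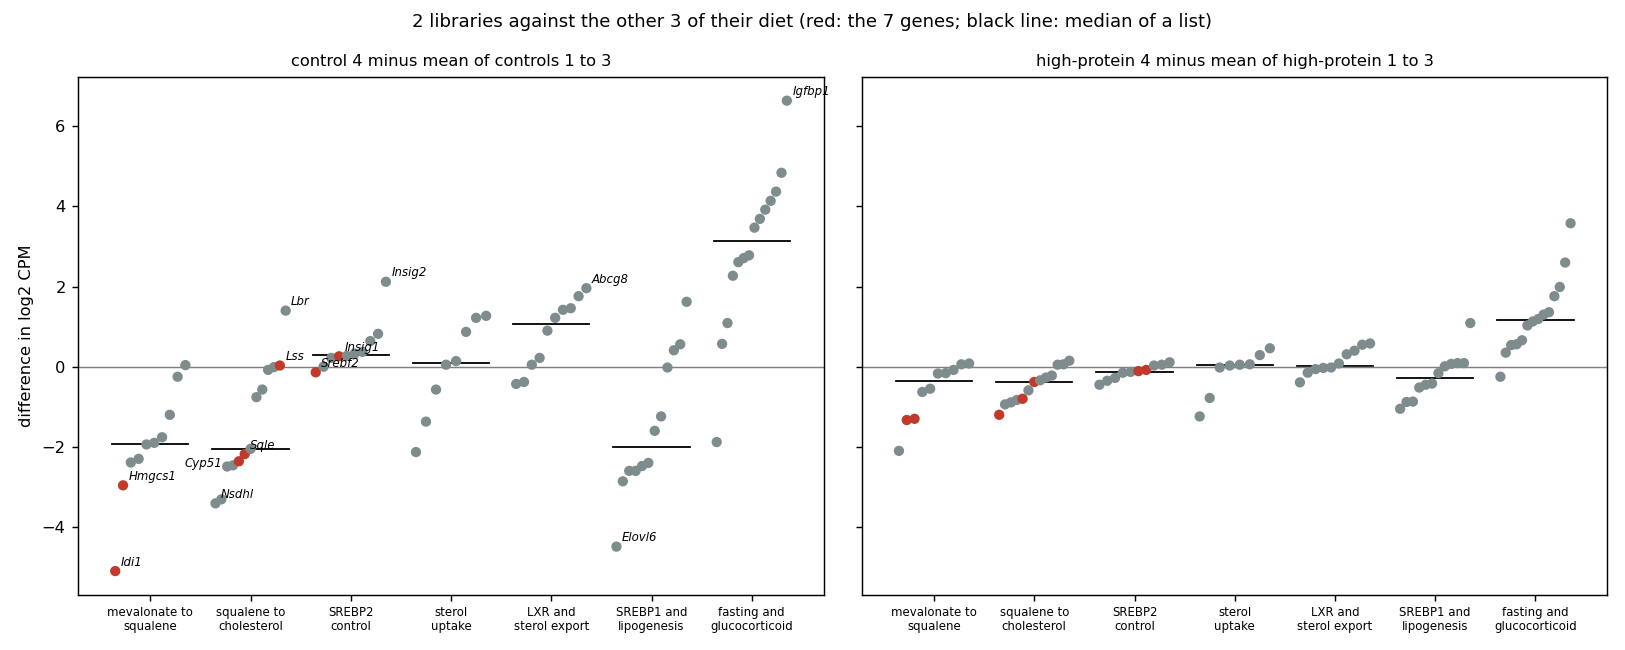
Difference in log2 CPM (vertical axis) of control 4 from the mean of controls 1 to 3 (left) and of high-protein 4 from the mean of high-protein 1 to 3 (right), one point per gene, red for the 7 genes, black lines for list medians. Idi1 at -5.10 is the lowest point of the synthesis lists in control 4, and Lss is at 0.03.

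**Figure D4:**
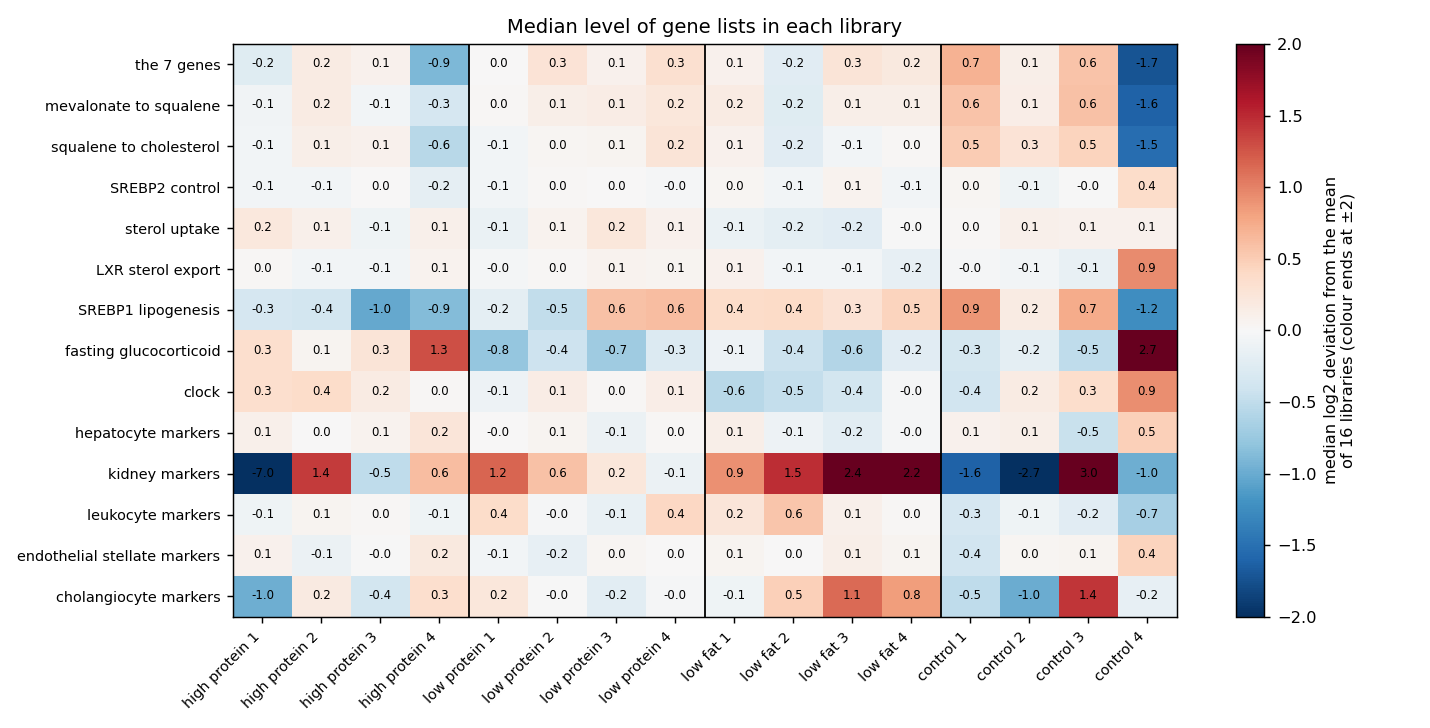
Median deviation in log2 CPM of each gene list (rows) from the mean of 16 libraries, by library (columns), with colour ending at 2 on either side. The 7 genes are lowest in control 4 and next in high-protein 4, the libraries where the fasting and glucocorticoid list is highest.

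Without control 4, the fitted differences from control grew for the 4 genes that were low in it. With high protein against controls 1 to 3 the log2 fold change was -1.02 (SE 0.31) for Hmgcs1, -0.94 (SE 0.28) for Idi1, -0.80 (SE 0.22) for Cyp51 and -0.47 (SE 0.28) for Sqle, and it stayed at -0.59 for Lss. None passed adjustment, the smallest adjusted p of the 7 being 0.3373 (Lss, edgeR). At an unadjusted p under 0.05, 4 of 7 genes were lower without control 4 and 2 of 7 with all libraries, where 8.79% and 6.22% of all genes had such a p in either direction. Leaving out any other library of these diets gave 1 or 2 of 7. With all libraries, limma-voom with quality weights gave 4 of 7. The median of the 7 without control 4 was -0.59 with high protein, -0.36 on low protein and -0.45 in the low-fat group. With high-protein 4 left out as well, the median with high protein against control was -0.50, while against low protein and low fat it was -0.27 and -0.11. In that fit 4 of 7 genes with high protein, 2 on low protein and 5 with low fat were below control at an unadjusted p under 0.05 (edgeR). Of all genes 5.54%, 4.12% and 5.79% had such a p in either direction. Without control 4 alone the low-protein and low-fat counts were 1 and 1 of 7.

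**Figure D5:**
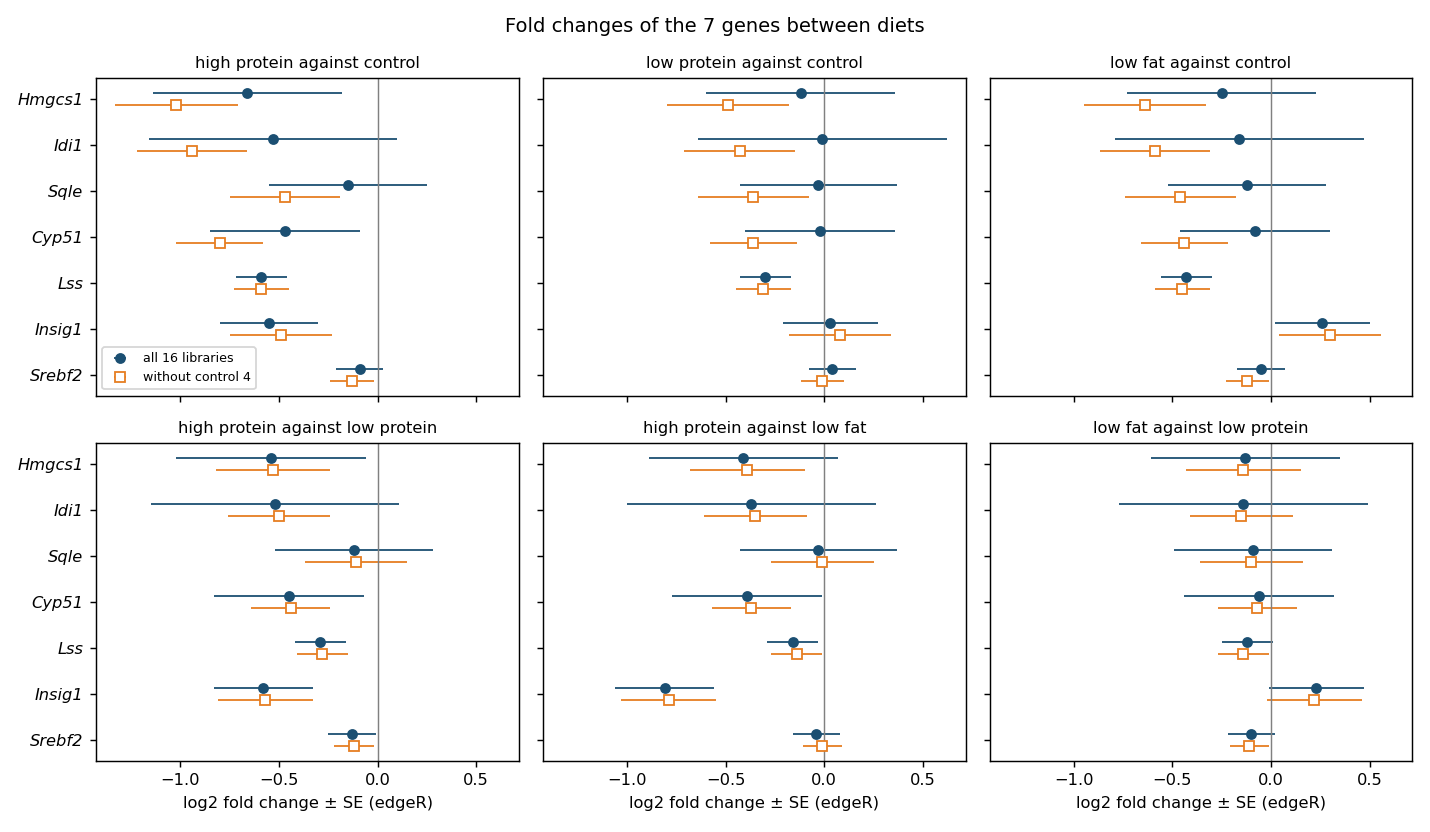
Log2 fold change with 1 SE (horizontal axis) of each gene in the 6 comparisons, with all 16 libraries (filled) and without control 4 (open). The open points of Hmgcs1, Idi1, Sqle and Cyp51 lie further left in the comparisons with control, and those of Lss do not move.

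The wider pathway was described from 23 synthesis genes, which include the 5 enzymes above. With high protein against control 19 of 23 were below 0 (median -0.19), 3 of them at an unadjusted p under 0.05, where 3.74% of all genes were lower at such a p. Without control 4 these were 21 and 12 of 23, where 8.79% of all genes had such a p in either direction. With any other library of these diets left out they were 14 to 20 and 2 or 3. By limma-voom with quality weights on all libraries they were 20 and 9, where 1085 of 17833 genes had such a p in either direction. With low protein 14 of 23 were below control, but 6 without control 1, 8 without control 3 and 23 without control 4. With low fat 20 of 23 were below control, 12 without control 1 and 21 without control 4. In the fit without control 4, 10 of the 23 were lower at an unadjusted p under 0.05 (edgeR) in the low-fat group. On low protein 3 were. Of all genes 5.57% and 3.65% had such a p in either direction in that fit. With all libraries 2 of 23 were lower at such a p for either diet. Pmvk, the phosphomevalonate kinase, averaged 21.4 ± 3.51 CPM with high protein and 31.2 ± 12.1 CPM in control, and Mvd, the decarboxylase after it, 11.6 ± 2.92 CPM with high protein and 16.05 ± 10.4 CPM in control (SD, n = 4 each). Lbr, a sterol reductase of the nuclear envelope, was at a log2 fold change of -0.96 (SE 0.28) with high protein and -0.65 (SE 0.28) with low protein. Its control mean rested on control 4, at 24.7 CPM against 9.56 CPM on average in the others, and without that library the log2 fold changes of Lbr were -0.48 and -0.19 for these diets. Hsd17b7, a keto-sterol reductase, was at a log2 fold change of -0.42 (SE 0.13) with low fat and -0.26 (SE 0.13) with low protein. None of them passed.

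Of 10 genes that control SREBP2, 9 were below 0 with high protein, 7 on low protein and 6 in the low-fat group, and 0 passed. Over all tested genes 58.3%, 54.4% and 52.4% were below 0 in these comparisons. Without control 4 the counts were 7, 4 and 5 of 10, and the median log2 fold change on low protein was 0.02 in place of -0.09. Insig2, the second INSIG gene, averaged 115 ± 50.5 CPM with high protein and 269 ± 234 CPM in control, where control 4 alone was at 576 CPM. Its log2 fold change was -1.23 (SE 0.56) with all libraries and -0.54 (SE 0.5) without control 4. Mbtps2, the site-2 protease that cuts SREBP2 free, was at log2 fold changes of -0.31 (SE 0.12) with high protein and -0.28 (SE 0.12) with low protein. The ubiquitin ligase genes Rnf145 and Rnf139 were at -0.60 (SE 0.23) and -0.31 (SE 0.13) with low fat, and Rnf145 at -0.46 (SE 0.23) with low protein. Control 4 exceeded the mean of controls 1 to 3 for Mbtps2 (13.35 against 11.48 CPM), Rnf139 (35.94 against 27.92 CPM) and Rnf145 (49.67 against 40.96 CPM). At an unadjusted p under 0.05 (edgeR), 3, 1 and 2 of the 10 were lower with high protein, low protein and low fat. Without control 4 they were 1, 0 and 1, where 8.79%, 3.65% and 5.57% of all genes had such a p in either direction. Of 9 uptake genes 8 passed the filter on low counts, and of these 4 were below 0 with high protein, 7 on low protein and 8 in the low-fat group. Without control 4 these were 2, 4 and 7 of 8, and without low-protein 1 the low-protein count was also 4. Npc1 and Npc2, which move cholesterol out of lysosomes, had log2 fold changes between -0.24 and 0.16 over the 3 diets.

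Among 10 genes of LXR and sterol export, 8 were below 0 with high protein, 6 on low protein and 7 in the low-fat group, and 0 passed. The shares of all tested genes below 0 were 58.3%, 54.4% and 52.4%. Without control 4, in which 5 of the 10 were higher by 1 log2 unit or more, the counts were 3, 4 and 5 of 10. The median with high protein was then 0.12, in place of -0.21. Abcg5 and Abcg8, the partners in the transporter that exports sterol into bile, averaged 134 ± 4.93 and 118 ± 17.4 CPM with low fat and 278 ± 169 and 278 ± 233 CPM in control (SD, n = 4 each). Low-fat libraries were below all controls for either gene, where 1.32% of all tested genes were lower without overlap. For Abcg8 the highest low-fat library was at 136.5 CPM and the lowest control at 137.6 CPM. Control 4 was the highest control, at 530.0 CPM for Abcg5 and 627 CPM for Abcg8. The log2 fold changes of Abcg5 and Abcg8 with low fat were -1.05 and -1.24 with all libraries, and -0.56 and -0.49 without control 4. Abca1, the cholesterol efflux pump, was at a log2 fold change of -0.62 (SE 0.28) with high protein, and at -0.24 (SE 0.22) without control 4. With low protein Mylip, a ubiquitin ligase gene induced by LXR, was at -0.76 (SE 0.34), and at -0.12 (SE 0.17) without control 4. Soat2, the sterol esterifying enzyme, was at 0.32 (SE 0.14) with low protein and at 0.35 (SE 0.14) without control 4.

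The 12 genes of SREBP1 and lipogenesis were all below 0 with high protein against control (median -0.94), as were 58.3% of all genes. Of the 12, 6 were at an unadjusted p under 0.05 (edgeR), where 3.74% of all genes were lower at such a p, and 0 passed. Acacb, an acetyl-CoA carboxylase, averaged 21.3 ± 1.3 CPM with high protein and 69.5 ± 24.4 CPM in control, without overlap. Of all tested genes 0.841% were lower without overlap in that comparison. Pnpla3, a lipid droplet protein, was at a log2 fold change of -2.57 (SE 0.73) at levels under 4 CPM. With low protein 9 and with low fat 8 of 12 were below 0 (5 with low fat without control 1), as were 54.4% and 52.4% of all genes. Mlxipl, which encodes the sugar-sensing factor ChREBP, and Scd1, a fatty acid desaturase, were at 0.49 (SE 0.25) and 0.76 (SE 0.61) with low fat. Without control 4 Scd1 was at 0.38 (SE 0.53).

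Hmgcs1, Idi1, Sqle and Cyp51 had similar profiles over the 16 libraries, with Pearson correlations of log2 CPM of 0.89 to 0.98. Without control 4 and high-protein 4, the libraries farthest from the mean, these were 0.54 to 0.93 (n = 14). Insig1 had correlations of -0.07 to 0.05 with the 4. Lss had -0.02 to 0.27 with them over all libraries and 0.60 to 0.72 without those 2 libraries. Points share library and depth, so these values are descriptions. Outside the lists, of 12049 protein-coding genes above 1 CPM on average, Scnn1a (0.904), Tmem144 (0.893), Rab23 (0.888), Ammecr1 (0.887), Pstpip2 (0.875), D630039A03Rik (0.874), Parva (0.871), Col27a1 (0.865), Hcn3 (0.864) and Sort1 (0.863) had the highest correlation with the mean standardised level of the 7. These ran from 0.627 (Hcn3) to 0.916 (Rab23) without control 4 and high-protein 4. Once diet means were subtracted, the 10 highest were Ttbk1 (0.931), Scnn1a (0.924), Pigh (0.92), Ugt3a1 (0.92), Col27a1 (0.913), Rab23 (0.909), Parva (0.909), Focad (0.89), Erc2 (0.889) and Ammecr1 (0.886). Over the 14 libraries without those 2, these ran from 0.741 (Focad) to 0.897 (Rab23). The diet means subtracted there were still those of all 16 libraries, so those 2 libraries kept a part in these values.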

How the data were processed

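Raw gene counts of all 16 libraries came from a single deposited table. The submitters' processing notes name STAR 2.7.0f, Trimmomatic 0.39, edgeR 3.32.1, Subread 1.6.4, featureCounts and build GRCm38.p6. Strand and other settings: not given in the sources used here. GENCODE M21 symbols matched 53861 of 54752 identifiers with version and 54723 without it.

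With R 4.3.3 and edgeR 4.0.16, the 17833 genes that passed filterByExpr were normalised by TMM and fitted with quasi-likelihood, with 4 diet means and all 16 libraries (12 residual degrees of freedom). Tests were two-sided, with Benjamini-Hochberg adjustment over all genes. SE is the absolute log2 fold change over the square root of F. CPM of single genes uses TMM-scaled totals, the marker sums plain totals, log2 CPM a prior count of 2, and TPM the summed exon length. Replicates differed beyond sampling noise (chi-square per degree of freedom 40.5 or more). The fit was tested on simulated data. For high protein against control it called 0 of 50 genes changed 1.5-fold, 17 of 50 changed 2-fold and 37 of 50 changed 4-fold, with 4 false calls. The largest change of a member in that comparison was 1.58-fold, for Hmgcs1, so a change of that size could go uncalled.

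The members and lists were chosen with earlier results of these data known. Besides the members, the 2 genes of each list with the smallest unadjusted p against control were to be named, and some genes that this rule names are not reported here. Other genes named are the 10 most correlated by either measure and, in the fasting and clock lists, the 2 with the largest difference in control 4. The alternatives tried were DESeq2 1.42.0, upper-quartile and RLE factors, limma-voom 3.58.1 with quality weights, other low-count filters, compared groups alone, a kidney covariate, a replicate block and each library left out. Leaving out control 4 and high-protein 4 together was added after seeing the data.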

Additional observations from a re-analysis of the deposited data

Results flagged for a closer look

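Idi1 in control was the 1 result marked as holding a distant library among the 28 groups of 4 libraries examined (7 genes by 4 diets). The gap from control 4 to the next control was 0.925 of the range of log2 CPM in the group, above Dixon's critical value for 4 libraries. Chance alone marks about 1 in 20 such groups. The log2 scale was settled on after plain CPM had been seen to give 0.752 for the same library, below that value, and on plain CPM 0 of the 28 groups would be marked. The cause of the low level was not tested.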

How the results depend on the processing

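No member passed the threshold in any of 756 tests under alternatives (smallest adjusted p 0.1116, edgeR on the compared groups alone), and 51 of these changed sign, 38 of them with 1 library left out. Genes called under DESeq2 against control numbered 1 with high protein, 10 on low protein and 4 in the low-fat group, and they numbered 25 with high protein against low protein, 81 with high protein against low fat and 79 for the 3 diets together, where edgeR called 0. With high protein against low fat, limma-voom called 1 and the compared groups alone 16. With 1 library of the compared diets left out, genes called ranged from 0 to 109 with low fat against control (109 without control 3), 0 to 2 with high protein against low protein, 0 to 1 with high protein against low fat and 0 to 1 for the 3 diets together (the last 3 without high-protein 3). Without control 4, which is outside that pair but shares the fit, 19 genes were called with high protein against low fat, none of them a member (smallest adjusted p of a member 0.143, edgeR). The cause was not tested.

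With 1 library of the compared diets left out, log2 fold changes that changed sign ranged, with low protein against control, from -0.49 to 0.15 for Hmgcs1, -0.43 to 0.26 for Idi1, -0.36 to 0.20 for Sqle, -0.36 to 0.21 for Cyp51, -0.20 to 0.22 for Insig1 and -0.03 to 0.14 for Srebf2. With low fat against control they ranged from -0.64 to 0.01 for Hmgcs1, -0.59 to 0.11 for Idi1, -0.46 to 0.12 for Sqle, -0.44 to 0.14 for Cyp51 and -0.13 to 0.05 for Srebf2. With high protein against control they ranged from -0.47 to 0.09 for Sqle and -0.16 to 0.02 for Srebf2. Sqle ranged from -0.30 to 0.12 with high protein against low protein, and with high protein against low fat Sqle ranged from -0.21 to 0.21 and Srebf2 from -0.09 to 0.02. With low fat against low protein Sqle ranged from -0.19 to 0.04, Cyp51 from -0.13 to 0.05 and Idi1 from -0.24 to 0.0 to 2 decimals, just above 0. With high protein against low fat, Sqle was at 0.04 under limma-voom and 0.14 with the kidney covariate, where Srebf2 was at 0.03. The same covariate left 6 of 7 members below 0 with high protein against low protein. Without control 4 and high-protein 4, Sqle was at 0.12 against low protein and 0.21 against low fat with high protein, and Srebf2 at 0.02 with high protein against low fat and -0.01 with low protein against control.

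The titles number animals 1 to 4 in every diet. With the number as a replicate block, log2 fold changes with low protein against control were 0.15 for Hmgcs1, 0.26 for Idi1, 0.12 for Sqle and 0.12 for Cyp51, and with low fat 0.13 for Idi1 and 0.04 for Cyp51, with Sqle at 0.0 to 2 decimals, just above 0, so that 1 of 7 and 3 of 7 members were below control. The block changed no call, as 0 genes were called with or without it. Whether the numbers pair animals of low fat and control depends on the genes used. Deviations of same-numbered libraries from their diet means correlated at 0.33, 0.18, 0.39 and 0.15 over the 2000 most variable genes, all above the limit of 0.1 for pairing, and at 0.26, 0.13, 0.30 and 0.07 over all 17833 genes, where the last is below it. The 2000 genes were used first, and all genes were chosen after those values had been seen. No other pair of diets had all 4 correlations above 0.1 on either set.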
